A study of Mus musculus with 4 samples.

Results

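A set of 10 genes, grouped as feedback genes of growth factor and stress signals, was examined in mouse retinal cells sorted at postnatal day 12. The set held Zfp36, Zfp36l1, Zfp36l2, Dusp1, Dusp5, Dusp6, Btg2, Klf2, Klf4 and Klf6, out of 21833 genes in the tables. It was drawn up by gene name and chosen by the measured FPKM of Zfp36, which was among the genes with the greatest excess in the knockout over wild type in Cd73-negative cells. All 10 genes had a usable value in every library. That comparison is therefore given as a description.

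Cells from retinas of the slc:ICR background were sorted with an antibody to Cd73, an ectoenzyme that marks rods and is encoded by Nt5e, into a positive (Cd73P) and a negative (Cd73N) fraction. Wild-type control retina, taken from normal littermates, was set against retina in which floxed Ezh2, the methyltransferase of Polycomb repressive complex 2, is deleted by DKK3-Cre (Ezh2-CKO). This Cre acts in retinal progenitor cells from early in embryonic life and not in a chosen mature cell type. The design held 4 libraries, 1 for each fraction and genotype, and the number of animals pooled at this age was not given. No difference below therefore has a replicate check, no p-value was computed, and the standard errors (SE) cover counting error within a library only. Genotype, animal, sort and library cannot be told apart. The sorting methods list a trypsin digest of the retinas before staining, and the authors caution that sorting may introduce artifacts. The effect of either step on these genes was not tested.

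Several of these genes belong to the negative arm of the immediate early response. Signals through the ERK, p38 and JNK kinases can switch such genes on within minutes, and their products then shorten the response. Not every gene of the set is known to act in this way. The Zfp36 family binds AU-rich elements in the 3′ UTR of short-lived mRNAs and brings in the CCR4-NOT deadenylase, which leads to decay of the message. Dusp1 removes phosphate from p38, JNK and ERK, whereas Dusp5 (in the nucleus) and Dusp6 (in the cytoplasm) act mainly on ERK. Btg2 is an antiproliferative protein that binds the same deadenylase. Klf2, Klf4 and Klf6 are zinc finger transcription factors of the Krüppel-like family, and Klf2 and Klf4 are known as flow-responsive factors of vascular endothelium. In the retina this response is known from Müller glia, the radial glia of the tissue, as well as from neurons.

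Many such mRNAs carry the AU-rich element that the Zfp36 family itself recognises, so the 3′ UTRs of the set were read from GENCODE transcripts on mm9 (NCBIM37), with the longest annotated 3′ UTR taken for each gene. The nonamer TTATTTATT, in DNA letters on the sense strand, was found in 4 of the 10 genes and in 6.52% of 19915 genes with a 3′ UTR. The sites are shown because they fall in the 4 genes of the set with the greatest genotype ratios in Cd73N, which was noticed after the values were seen. Capitals mark the nonamer, and lower case the surrounding UTR.
Zfp36 (chr7:29161972-29161996, minus strand): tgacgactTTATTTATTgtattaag
Zfp36l1 (chr12:81209156-81209180, minus strand): ctgttggaTTATTTATTttagaaat
Zfp36l2 (chr17:84584256-84584280, minus strand): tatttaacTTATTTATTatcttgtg
Dusp1, first site (chr17:26643106-26643130, minus strand): gctggtccTTATTTATTtaacaccc
Dusp1, second site (chr17:26642817-26642841, minus strand): ttttacctTTATTTATTtttgtgta

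Zfp36, Zfp36l1, Zfp36l2 and Dusp1 also held 3 matches each to the shorter core TATTTAT, which lies inside the nonamer. Among 3′ UTRs of like length (0.8 to 1.25 times), 1.003% had at least 3 such matches for the length of Zfp36, 3.74% for Zfp36l1, 3.77% for Zfp36l2 and 1.25% for Dusp1. The cut of 3 was the number found in these genes, so nothing is read from those shares. For the nonamer the shares of like length were 4.01% for Zfp36, 9.03% for Zfp36l1, 9.05% for Zfp36l2 and 3.71% for Dusp1. Klf6 had 2 matches to the core, Btg2 and Klf2 had 1 each, and Dusp5, Dusp6 and Klf4 had 0. At least 1 match was in 49.7% of UTRs of like length for Klf6, 39.5% for Btg2 and 17.6% for Klf2. The core was in 7 of the 10 genes and in 23.9% of all genes with a 3′ UTR. A match of letters is a description of the transcript, and binding was not measured.

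Promoters were taken from RefSeq on GRCm38.p6, as 250 bases before to 50 after each gene start, and 9 of the 10 genes had an entry. Zfp36l2 had none. Both strands were searched for the CArG box (bound by SRF), the cAMP response element TGACGTCA (CRE, bound by CREB), the AP-1 site TGANTCA with N as C or G (bound by Fos and Jun) and the GC box GGGCGG (bound by Sp1 and Klf factors). A CArG box was found for Zfp36 and Dusp5, against 1.63% of 32851 promoters, and a CRE for Dusp1 and Btg2, against 1.79%. The AP-1 site, in 5.20% of promoters, was in 0 of the 9 windows, and the GC box, in 35.7% of promoters, was in 7 of them. The stretches with the SRF and CREB motifs are printed because each motif occurs in a pair of genes whose levels are compared below. Capitals mark the motif, and each stretch ends at least 31 bases before the RefSeq start.
Zfp36, CArG box (chr7:28379259-28379326, minus strand): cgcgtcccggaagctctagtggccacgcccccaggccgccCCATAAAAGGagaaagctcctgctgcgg
Dusp5, a pair of adjoining CArG boxes (chr19:53529023-53529114, plus strand): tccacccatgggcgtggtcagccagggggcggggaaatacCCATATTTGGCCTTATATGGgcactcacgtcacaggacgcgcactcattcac
Dusp1, CRE (chr17:26508556-26508655, minus strand): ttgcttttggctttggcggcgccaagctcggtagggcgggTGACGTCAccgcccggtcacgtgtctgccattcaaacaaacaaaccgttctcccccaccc
Btg2, CRE (chr1:134079262-134079361, minus strand): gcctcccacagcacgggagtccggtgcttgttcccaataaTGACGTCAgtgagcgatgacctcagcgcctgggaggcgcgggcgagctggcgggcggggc
The single CArG box of Zfp36 shares its first base with a GC box on the other strand. Dusp5, which carries 2 CArG boxes, was the gene of the set with the lowest genotype ratio in Cd73N.

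The libraries were first checked against their labels. FPKM (fragments per kilobase of exon, scaled to the mapped fragments of the library) of Nt5e was 0.84 and 0.61 in Cd73N and 125 and 123 in Cd73P, wild type first, so the fractions were separated in both genotypes. Ezh2 had 14.1 and 15.9 FPKM in Cd73N, and 5.38 and 3.45 FPKM in Cd73P. The Ezh2 level thus went against the label in Cd73N, and since a gene-level FPKM cannot show the loss of a floxed exon, these are called the libraries labelled Ezh2-CKO, and Ezh2-CKO beside a value below means that label. Xist went from 52.2 to 240.4 FPKM in Cd73N, and the sum of 4 Y-linked genes from 26.8 to 0.72, so the sex of the animals also differed between genotypes and cannot be told apart from the knockout. None of the 10 genes lies on a sex chromosome. Relative depth, inferred from the width of the deposited FPKM bounds over 3473 genes, lay between 1 and 1.17 times that of Cd73N wild type.

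In Cd73N, 7 of the 10 genes were higher in the library labelled Ezh2-CKO by at least 1.5-fold on the scale of FPKM + 1, and 0 were lower. Over all 21707 genes compared, 7.19% were higher and 1.71% were lower. Of the 7 genes of the set with at least 10 FPKM in either library 6 were higher and 0 were lower, where 8.06% and 3.64% of 6864 such genes were. This contrast contributed to the choice of the set, and nothing is read from the difference between those shares. Together the 10 genes summed to 128 FPKM in wild-type Cd73N cells against 509 FPKM under the Ezh2-CKO label, while the sums in Cd73P were 113 and 114 FPKM. As a sum, in which the most abundant genes weigh most, the excess was thus found in 1 of the 4 libraries. Zfp36 and Zfp36l1 were also higher in Cd73P, as given below. The median log2 ratio of the set was 1.48 in Cd73N and 0.10 in Cd73P, beside medians over all genes of 0 in each.

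**Figure D1:**
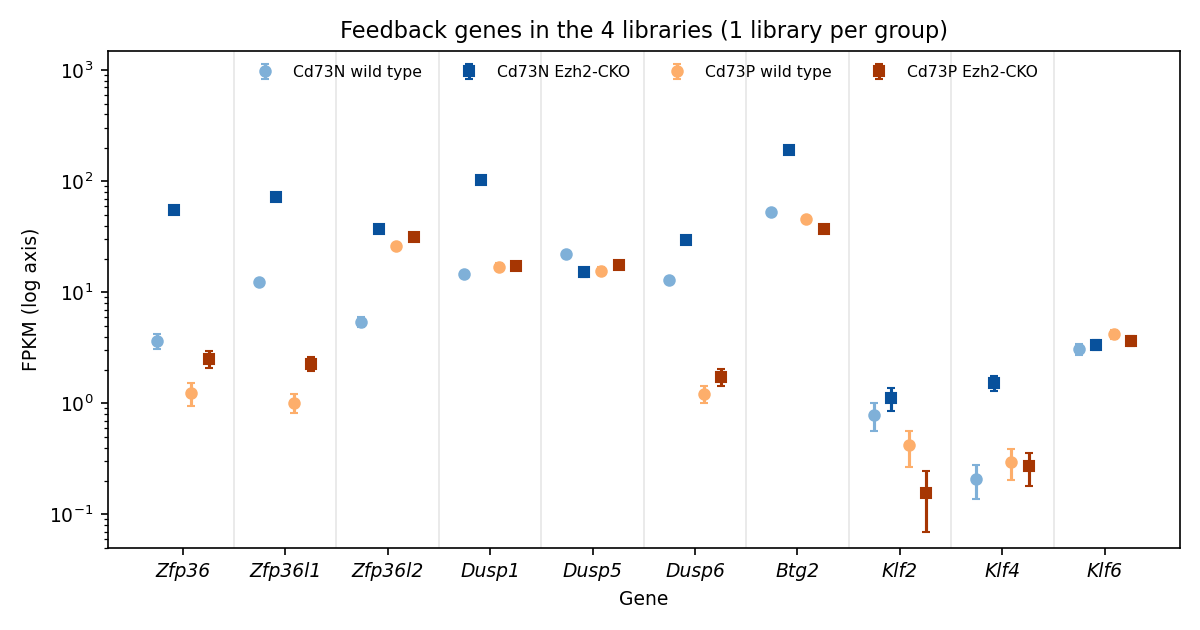
FPKM of the 10 feedback genes on a log axis in each of the 4 libraries (circles wild type, squares Ezh2-CKO, blue Cd73N, orange and brown Cd73P), with bars of 2 counting SE to each side. The dark blue square of Cd73N Ezh2-CKO lies above the other libraries for all genes but Dusp5 and Klf6, at 55.6 FPKM for Zfp36 and 189.8 FPKM for Btg2.

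Among the RNA-binding proteins, Zfp36, also known as tristetraprolin (chromosome 7, 29161803 to 29164247, mm9, minus strand, protein coding), had 3.63 FPKM in wild-type Cd73N cells against 55.6 FPKM under the Ezh2-CKO label, and 1.24 against 2.51 FPKM in Cd73P. Its Cd73N log2 ratio of 3.61 (SE 0.090) was the fifth highest of 21707 genes. From high to low the order was Cd73N Ezh2-CKO, Cd73N wild type, Cd73P Ezh2-CKO and Cd73P wild type, and no neighbours in it had overlapping counting intervals (2 SE to each side). In Cd73P the log2 ratio was 0.65 (SE 0.13), which rests on levels near those where the added 1 FPKM weighs heavily. With 5 FPKM added in place of 1 it was 0.27 and no longer past 1.5-fold.

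Zfp36l1 (chromosome 12, 81208747 to 81214000, minus strand) had the same order of libraries, with 12.4 and 71.8 FPKM in Cd73N and 1.02 and 2.28 FPKM in Cd73P. Its log2 ratios were 2.44 (SE 0.043) in Cd73N and 0.70 (SE 0.0998) in Cd73P, and the latter went to 0.27 with 5 FPKM added. A lincRNA, Gm17591, overlaps it on the other strand in GENCODE, and reads from the pair could not be told apart without strand. It covered the widest range of the set, with 70.5 times more FPKM in its highest library than in its lowest.

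Zfp36l2 (chromosome 17, 84583269 to 84587287, minus strand) departed from its paralogues in Cd73P. Its FPKM was 5.45 in wild-type Cd73N cells and 36.8 under the Ezh2-CKO label, but 25.9 and 31.3 in Cd73P, so that Cd73N wild type was the lowest library. The log2 ratio between genotypes was 2.55 (SE 0.065) in Cd73N and 0.26 (SE 0.038) in Cd73P. On the FPKM scale, which is per length, Zfp36l2 was the highest of the family in both Cd73P libraries, whereas Zfp36l1 was the highest in both Cd73N libraries.

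Among the phosphatases, Dusp1 (chromosome 17, 26642536 to 26645417, minus strand) had 14.6 FPKM in wild-type Cd73N cells and 104 FPKM under the Ezh2-CKO label, while Cd73P gave 17.1 and 17.3 FPKM. Its log2 ratio was 2.74 (SE 0.053) in Cd73N and 0.02 (SE 0.067) in Cd73P, the latter with a sign that changed with scaling. The 3 other libraries lay close together, and the values of the Cd73P pair were within their counting intervals. Dusp6 (chromosome 10, 98725865 to 98730123, plus strand) was found mainly in Cd73N, at 13.0 and 29.8 FPKM, against 1.23 and 1.73 FPKM in Cd73P. The log2 ratio was 1.13 (SE 0.048) in Cd73N and 0.29 (SE 0.11) in Cd73P, where the intervals of the genotypes overlapped.

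Dusp5 (chromosome 19, 53603808 to 53615812, plus strand) went the other way. In Cd73N it had 22.0 FPKM in wild type against 15.1 FPKM in Ezh2-CKO, and the log2 ratio was -0.52 (SE 0.075), short of the 1.5-fold threshold at 0.58. In Cd73P it was at 15.6 and 17.7 FPKM, a log2 ratio of 0.17 (SE 0.083). All 4 libraries lay within a range of 1.46 times. Its FPKM lay above the deposited upper bound in all 4 libraries.

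Btg2 (chromosome 1, 135971442 to 135975732, minus strand) was the most abundant gene of the set in every library. Cd73N gave 52.4 FPKM in wild type and 189.8 FPKM in Ezh2-CKO, and Cd73P gave 45.6 and 37.5 FPKM. The log2 ratio was 1.84 (SE 0.026) in Cd73N and -0.28 (SE 0.035) in Cd73P. No neighbours in the order of its libraries were within their counting intervals, although its FPKM too lay above the deposited upper bound throughout.

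In both Cd73N libraries the Krüppel-like factors were the least abundant of the set. Klf4 (chromosome 4, 55540009 to 55545347, minus strand) had 0.21 FPKM in wild-type Cd73N cells and 1.53 FPKM under the Ezh2-CKO label, with 0.30 and 0.27 FPKM in Cd73P. The log2 ratio in Cd73N was 1.07 (SE 0.080), which became 2.40 with 0.1 FPKM added and 0.33 with 5 FPKM added, the latter not past 1.5-fold. The 3 other libraries overlapped in their intervals, which correspond to the counting error of 35 to 41 fragments.

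Klf2 (chromosome 8, 74842961 to 74845553, plus strand) was at 0.79 and 1.12 FPKM in Cd73N and at 0.42 and 0.16 FPKM in Cd73P, the last with a width that corresponds to about 13 fragments. Its log2 ratios of 0.24 (SE 0.13) in Cd73N and -0.29 (SE 0.094) in Cd73P were not past 1.5-fold, and in Cd73N the intervals of the genotypes overlapped. Klf6 (chromosome 13, 5860735 to 5869639, plus strand) was at 3.06 and 3.38 FPKM in Cd73N and 4.18 and 3.63 FPKM in Cd73P, with log2 ratios of 0.11 (SE 0.080) and -0.16 (SE 0.081). Every library of Klf6 overlapped with its neighbour in level, and the whole range was 1.37 times.

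**Figure D2:**
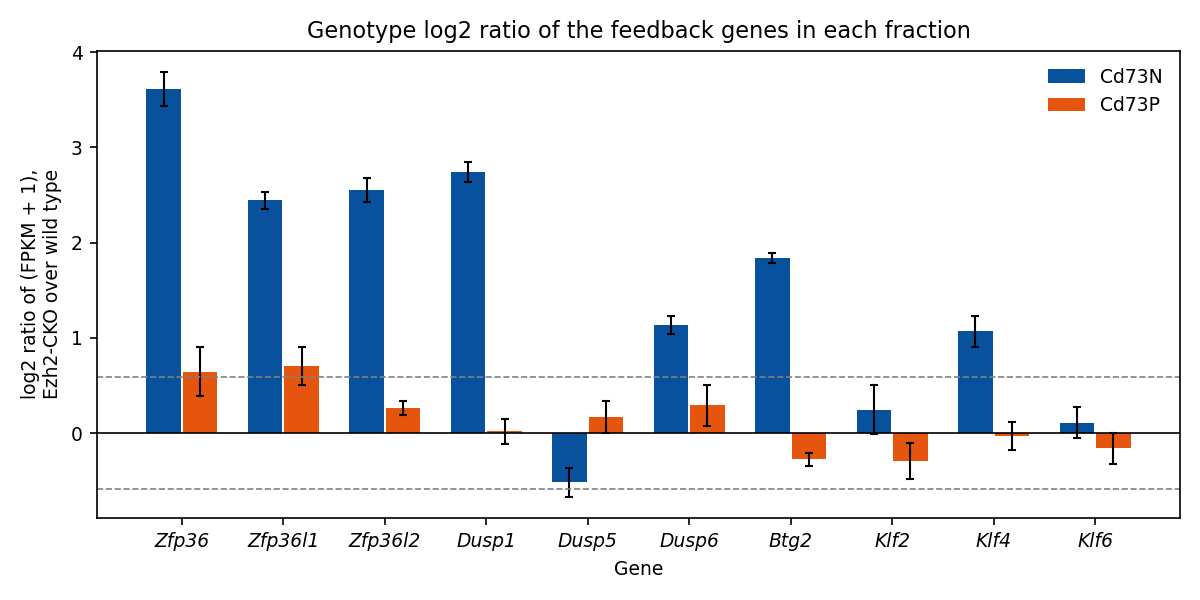
Log2 ratio of (FPKM + 1), Ezh2-CKO over wild type, for each gene in Cd73N (blue) and Cd73P (orange), with bars of 2 counting SE and dashed lines at 1.5-fold. Blue bars reach 3.61 for Zfp36 and pass the upper line for 7 genes, while orange bars stay between -0.29 and 0.70.

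In Cd73P, 2 of the 10 genes, Zfp36 and Zfp36l1, were higher in the library labelled Ezh2-CKO and 0 were lower, where 2.27% of 21708 genes were higher and 2.38% were lower. Both were below 3 FPKM there. With 5 FPKM added, or among the 4 genes with FPKM of at least 10 (where 3.28% of 5637 such genes were higher), the count was 0. The genotype log2 ratio in Cd73N minus that in Cd73P was 2.97 (SE 0.16) for Zfp36 and 2.72 (SE 0.085) for Dusp1. It was 2.29 (SE 0.075) for Zfp36l2, 2.11 (SE 0.044) for Btg2 and 1.74 (SE 0.11) for Zfp36l1. The difference was 1.10 for Klf4, 0.84 for Dusp6, 0.54 for Klf2, 0.27 for Klf6 and -0.69 for Dusp5. These differences exceed the counting error, but with 1 library in each group they could not be tested. The set was chosen by the excess of Zfp36 in Cd73N, and the share of all genes with a greater ratio in Cd73N was not computed. Nothing is therefore read from the lean of the set.

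The fractions were then compared within each genotype. The comparisons share their libraries with those above, so they are another view of the same 4 values per gene. In wild type 1 gene of the set had more FPKM in Cd73P and 3 had more in Cd73N, past 1.5-fold, where 9.07% and 27.9% of 21706 genes were. Among the 6 genes of the set with at least 10 FPKM 2 were higher in Cd73N, as were 46.4% of 7124 such genes. Zfp36l2 was the gene higher in Cd73P, with a log2 ratio of 2.06 (SE 0.066), while Zfp36 (-1.05, SE 0.13), Zfp36l1 (-2.73, SE 0.081) and Dusp6 (-2.66, SE 0.082) were higher in Cd73N. Dusp1 (0.21), Dusp5 (-0.47), Btg2 (-0.20), Klf2 (-0.34), Klf4 (0.10) and Klf6 (0.35) were not past the threshold. Scaling the libraries by their FPKM sum moved Klf6 to 0.70 and Dusp1 to 0.61, past it, and turned the sign of Btg2. With 5 FPKM added Zfp36 was at -0.47 and no longer past it.

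In the libraries labelled Ezh2-CKO, 0 genes of the set had more FPKM in Cd73P and 7 had more in Cd73N, where 8.41% and 29.1% of 21705 genes were. Among the 7 genes with at least 10 FPKM 5 were higher in Cd73N, as were 42.1% of 7299 such genes. Dusp1 (-2.51, SE 0.050) and Btg2 (-2.31, SE 0.027), which were within the threshold between wild-type fractions, were among them, with Zfp36 (-4.01), Zfp36l1 (-4.47), Dusp6 (-3.49), Klf4 (-0.996) and Klf2 (-0.87). Zfp36l2, which had been higher in wild-type Cd73P, was at -0.23 (SE 0.035), a value whose sign changed under scaling. With 5 FPKM added Klf4 was at -0.31 and Klf2 at -0.25, neither past 1.5-fold. Dusp5 (0.21) and Klf6 (0.08) differed little.

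**Figure D3:**
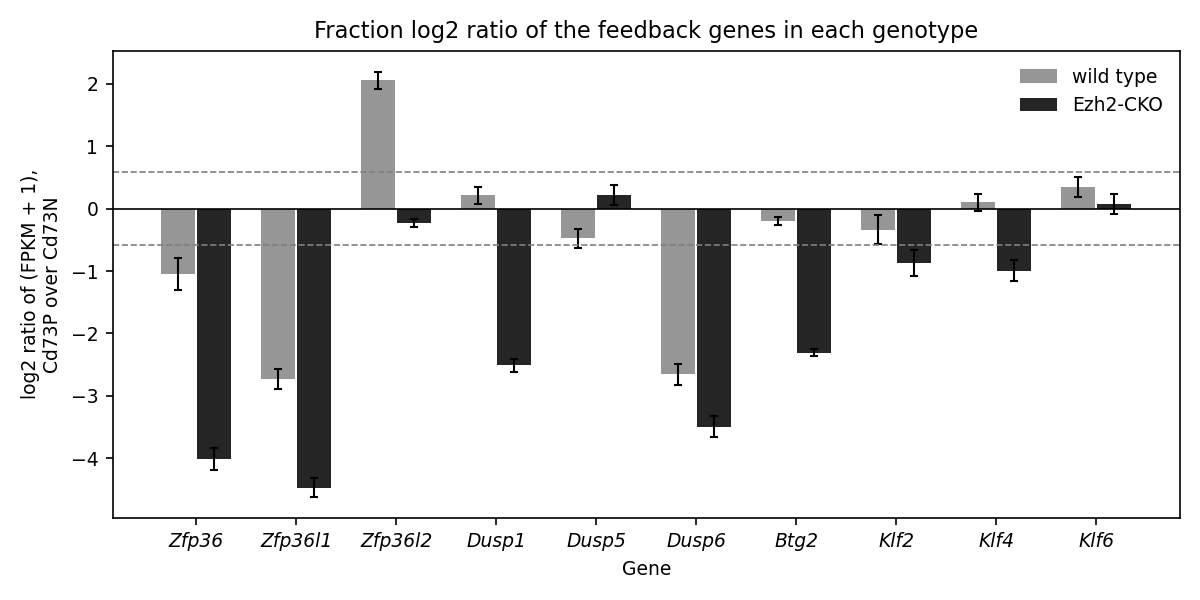
Log2 ratio of (FPKM + 1), Cd73P over Cd73N, for each gene in wild type (grey) and in Ezh2-CKO (black), with bars of 2 counting SE and dashed lines at 1.5-fold. Zfp36l2 stands at 2.06 in wild type and -0.23 in Ezh2-CKO, and Dusp1 at 0.21 and -2.51.

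Relatives of the set were then counted in the same way in Cd73N. Over all genes, 7.19% were higher and 1.71% were lower in Cd73N, against 2.27% and 2.38% in Cd73P. Those shares stand beside every list below. Of the 7 other MAP kinase phosphatases, 0 were higher and 2 were below wild type under the Ezh2-CKO label, with a median log2 ratio of -0.45. Dusp4, an ERK and JNK phosphatase of the nucleus, went from 51.2 to 17.1 FPKM, a log2 ratio of -1.53, and Dusp10, which acts on p38 and JNK, from 8.11 to 5.06 FPKM. Dusp7 and Dusp8 had log2 ratios of -0.49 and -0.45. In Cd73P Dusp4 was also lower, at 3.99 and 0.82 FPKM.

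Of 14 other Krüppel-like factors, 2 were higher and 1 was lower, with a median of 0.06. Klf3 went from 2.43 to 6.03 FPKM and Klf15 from 1.72 to 4.98 FPKM, whereas Klf10, a gene induced by TGF-beta, went from 24.7 to 13.5 FPKM. Klf10 was lower in Cd73P as well, at 30.2 and 15.1 FPKM. Klf11 and Klf16 had log2 ratios of -0.26 and -0.49 in Cd73N. Among 5 other genes of the Btg and Tob family, 0 passed the threshold in either direction, with Tob1 at 55.1 and 81.7 FPKM (log2 ratio 0.56) and Btg1 at 47.9 and 38.9 FPKM (-0.29). Tob2 was at 30.5 FPKM in both Cd73N libraries, and Btg3 and Btg4 were at or near 0 throughout.

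Subunits of CCR4-NOT, which carries out deadenylation, were counted as well. Of 10 subunits, 0 were past 1.5-fold in Cd73N, with ratios from -0.41 for Cnot8 to 0.24 for Cnot4 and a median of -0.19. This count is near the share of all genes called, and nothing is read from it. Cnot7, the catalytic partner of Btg2, was at 49.2 and 42.5 FPKM, and Cnot10 had a log2 ratio of -0.40. Cnot1 had no usable value in Cd73P wild type, and 0 of the 9 others differed there.

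Of 15 transcripts known to carry AU-rich elements read by the Zfp36 family, most of them cytokines, 3 reached 1 FPKM in a Cd73N library. All 3 were higher in the library labelled Ezh2-CKO. Vegfa, the vascular growth factor, went from 36.5 to 87.2 FPKM (log2 ratio 1.24), Ier3, an early response gene, from 9.58 to 24.6 FPKM (1.28), and Fos from 53.3 to 465 FPKM (3.10). Ccl2, at 0.18 and 0.81 FPKM, also passed 1.5-fold, which makes 4 of 15 higher and 0 lower. In Cd73P only Fos of these was past the threshold, at 25.7 and 49.5 FPKM, while Vegfa was at 4.10 and 2.42 FPKM.

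Upstream of the phosphatases, 5 of 13 other feedback inhibitors and targets of ERK were higher in Cd73N and 0 were lower, with a median of 0.42. They were Spry1 (4.80 to 14.8 FPKM), Spry2 (16.8 to 34.9 FPKM), Etv1 (2.36 to 6.14 FPKM), Il17rd (0.64 to 2.82 FPKM) and Errfi1 (7.44 to 12.2 FPKM). Sprouty proteins and Il17rd restrain receptor signalling, Etv1 is a transcription factor downstream of FGF, and Errfi1 inhibits the EGF receptor. In Cd73P 3 genes of the list were higher, namely Spry3, Spred3 and Etv5, and 0 were lower. In the core of the pathway 2 of 20 genes were higher and 0 were lower. The 2 were receptors, Fgfr1 from 3.04 to 12.2 FPKM (log2 ratio 1.71) and Egfr from 0.79 to 4.59 FPKM (1.64). The other 18 genes were within the threshold, with log2 ratios of 0.42 for Nras, 0.29 for Sos2 and -0.28 for Map2k2. Of 13 genes of the p38 and JNK kinases, 3 were higher and 1 was lower. Mapk10, the neuronal JNK, went from 3.83 to 7.68 FPKM and Map2k6, a p38 activator, from 15.7 to 9.49 FPKM. The other 2 higher genes, Mapk13 and Mapkapk3, were at or below 1.14 FPKM. Map2k7 and Mapk8 had log2 ratios of 0.36 and -0.34.

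Transcription factors and other products on the activating side of the immediate early response were counted next. Of 21 other immediate early genes, 12 were higher in Cd73N and 0 were lower, with a median of 0.66 over all 21 and 1.70 over the 16 with at least 1 FPKM. Fosb went from 1.67 to 33.9 FPKM (log2 ratio 3.70), Cyr61, a matricellular target of SRF and YAP, from 11.3 to 129.6 FPKM (3.41), and Junb from 17.9 to 107 FPKM (2.52). In Cd73P, 3 of these genes (Fos, Fosb and Cyr61) were higher and 2 (Jun and Egr1) were lower. Egr1 was at 113 and 282 FPKM in Cd73N but at 90.9 and 55.5 FPKM in Cd73P, the same order of the 4 libraries as for Btg2. Of the heat shock genes 0 of 12 were past the threshold in either fraction, with a median of -0.27 in Cd73N. That count too is near the share of all genes called. Hspa8 had a log2 ratio of -0.49 in Cd73N, Dnajb1 -0.45, Hsp90ab1 -0.41 and Hspe1 -0.35.

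**Figure D4:**
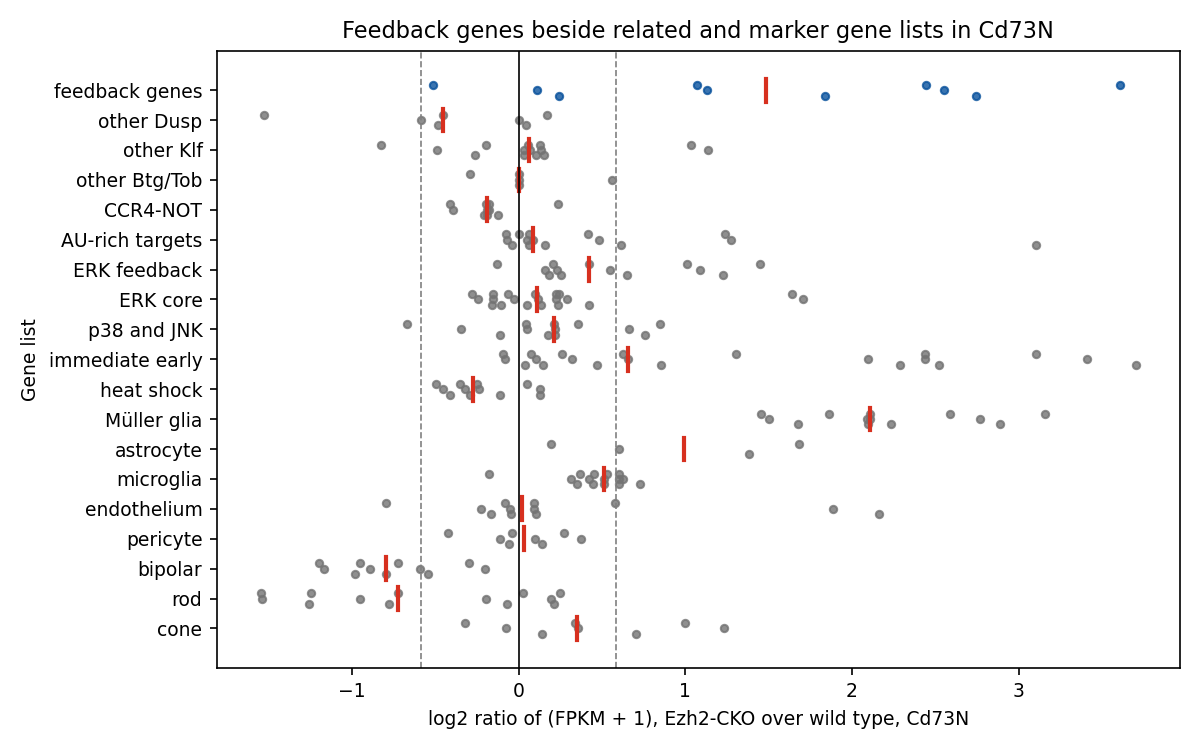
Log2 ratio of (FPKM + 1), Ezh2-CKO over wild type, in Cd73N for each gene (points) of the feedback set (blue) and of related and cell type marker lists (grey), with the median of each list as a red bar and dashed lines at 1.5-fold. The feedback genes spread from -0.52 to 3.61, the heat shock genes stay within the dashed lines, and all Müller glia markers lie at or above 1.46.

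Markers of cell types were set beside these values, because a fraction with more cells of a type and one with more RNA per cell cannot be told apart in sorted bulk samples. The markers of Müller glia came first. All 13 were above wild type in Cd73N under the Ezh2-CKO label, with log2 ratios from 1.46 to 3.16, a median of 2.11 and a summed FPKM of 1141 against 5834. Aqp4 (3.16), Dkk3 (2.89), Glul (2.77) and Kcnj10 (2.59) had the greatest ratios, and none of the 13 was at 0. The authors had already listed Apoe, Dkk3, Rlbp1 and Slc1a3 among the most upregulated genes of this contrast. The direction of these markers was therefore known beforehand. The Zfp36 ratio of 3.61 was above all 13. The set was chosen by this excess, so nothing is read from that place. The ratio of Dusp1 was above 10 markers, those of Zfp36l2 and Zfp36l1 above 9, and that of Btg2 above 3. Dusp6 and Klf4 were below all 13. For Klf4 this depended on the added 1 FPKM, since its ratio of 1.07 was 2.40 with 0.1 FPKM added. In Cd73P, where the same markers summed to 117 and 247 FPKM, 10 of 13 were higher. Their median log2 ratio there was 0.93, against 0.10 for the set, of which 2 of 10 genes were higher. The part of Müller glia content in the ratios of the set was not tested.

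Markers of other non-neuronal cells had lower median ratios. Of 15 microglia markers 5 were higher, with a median of 0.51, a highest ratio of 0.73 for P2ry12 and a sum of 149 and 219.8 FPKM. Csf1r (0.63), Cx3cr1 (0.60) and C1qa (0.60) were close to it. Of 12 endothelial markers, relevant to Klf2 and Klf4, 2 were higher and 1 was lower. The 2 were the VEGF receptors Flt1 (2.86 to 16.2 FPKM) and Kdr (22.6 to 86.2 FPKM), while Esam went from 23.9 to 13.3 FPKM. Cldn5 had a log2 ratio of 0.58, and Pecam1, Cdh5, Tek and Tie1 had log2 ratios between -0.05 and 0.10. Cdh5 and Tek were below 1 FPKM in both Cd73N libraries and Pecam1 was near it (0.93 and 1.07 FPKM). At those levels the added 1 FPKM leaves a ratio little room to move. All 8 pericyte markers were within the threshold, from -0.42 to 0.37, with Rgs5 at 0.27, Acta2 at -0.11, Pdgfrb at 0.10 and Abcc9 at -0.06. Of 4 astrocyte markers 3 were higher, with Gfap, also expressed by reactive Müller glia, at 2.86 and 11.4 FPKM, Aldh1l1 at 1.70 and 6.04 FPKM, and S100b at 2.16 and 3.80 FPKM.

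Among neurons, 8 of 11 bipolar markers were below wild type in Cd73N under the Ezh2-CKO label, with a median of -0.80 and log2 ratios of -1.20 for Bhlhe23, -1.17 for Vsx1, -0.98 for Isl1 and -0.96 for Pcp2. Of 13 rod markers 7 were lower (median -0.73), among them Nr2e3 (-1.55), Pde6b (-1.54) and Nrl (-1.26), and 0 were higher past 1.5-fold. The list was split, with Sag at 0.25, Gngt1 at 0.21 and Pde6g at 0.20. Its summed FPKM was 1752 in wild type and 1806 under the Ezh2-CKO label, so the rod signal as a sum did not fall. Of 8 cone markers 3 were higher (median 0.35), namely Arr3 (1.23), Pde6c (0.999) and Pde6h (0.71), while Opn1sw was at 0.35. Of 9 retinal ganglion cell markers 2 were higher and 1 was lower, Thy1 (2.06), Slc17a6 (0.76) and Sncg (-0.85), with Rbpms at 0.48. Of 7 amacrine markers 1 was higher, Gad1 (0.61, at 0.80 and 1.74 FPKM), with Slc6a9 at 0.42. Slc6a9 had more FPKM in wild-type Cd73P (24.1) than in wild-type Cd73N (6.46). Horizontal cell markers (0 of 5) and pigment epithelium markers (0 of 7, Dct at -0.36 and Ttr at 0.08) did not pass the threshold in Cd73N. Only 1 of these horizontal cell markers and 2 of these pigment epithelium markers reached 1 FPKM in a Cd73N library. Below that level the added 1 FPKM leaves little room to pass 1.5-fold.

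The profile of Zfp36 over the 4 libraries was finally compared with that of 7624 genes with at least 10 FPKM in a library, as the Euclidean distance between log2 values of (FPKM + 1) centred on their mean. The nearest were Slc13a5, a citrate transporter (distance 0.45), Cyp26a1, an enzyme that degrades retinoic acid (0.51), Syt15, a synaptotagmin (0.56), Fosb (0.58) and Fos (0.58). Cyp26a1 had 3.04 and 35.4 FPKM in the Cd73N pair, with 0.19 and 1.49 FPKM in the Cd73P pair. Within the set Zfp36l1 came at rank 72, Dusp1 at 119, Dusp6 at 192 and Btg2 at 221, while Zfp36l2 (4372) and Dusp5 (5559) were far from it. The Klf genes did not reach the FPKM minimum. With 4 points per gene this is a description only.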

How the data were processed

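Poly(A) RNA of the 4 sorted samples was sequenced as 36-base single-end reads. The authors aligned them to mm9 with TopHat (TopHat2 in the submitters' notes) 2.0.8b, with coverage search and up to 50 hits per read, and computed the deposited FPKM and its bounds with Cufflinks 2.1.1 on RefSeq genes. Library totals were not given in the sources used here, and FPKM was not scaled between libraries. Rows sharing a symbol (234 symbols) were summed, 725 small RNA symbols were left out, and genes without OK status in either library of a pair were left out of that pair. Coordinates are listed starts plus 1, which equalled GENCODE on mm9 for 4 of the 10 genes, against 1 without it.

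Ratios are log2 of (FPKM + 1), called at 1.5-fold, the study's threshold. SE was taken as the width of the deposited bounds divided by 4. FPKM exceeded the deposited upper bound for 17 of 40 values of the set and reached 1.17 times the midpoint of its bounds, and SE and intervals were centred on FPKM. Groups came from sample titles. Besides the set, Ezh2 and Nt5e, up to 4 genes of each list with at least 5 FPKM and the largest Cd73N ratio, genes counted in groups of 5 or fewer, and the 5 profiles nearest to Zfp36 were named. Apoe, Rlbp1 and Slc1a3 were named because the authors had listed them. The endothelial genes Pecam1, Cdh5, Tek and Tie1 and the rod genes Sag, Gngt1 and Pde6g were named after their values were seen. The comparison of AU-rich elements with the ratios was also made then. Some marker genes that this rule names are not reported here. Members and lists were chosen with earlier results of these data known. Fos is in 2 lists. Cnot9 (present as Rqcd1), Hras, Tfap2a and Tfap2b were not matched. Alternatives were pseudocounts of 0.1 and 5, scaling by median ratio or FPKM sum, a 2-fold threshold, an FPKM minimum of 10, non-overlapping bounds and, added after the data were seen, bound midpoints. The calling script was tested on simulated data. Python 3.11.15, numpy 2.4.6, pandas 2.3.3 and matplotlib 3.10.9 were used.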

Additional observations from a re-analysis of the deposited data

Results flagged for a closer look

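Genes of the set are listed here where the genotype ratio had opposite signs in the fractions, or the fraction ratio opposite signs in the genotypes. No minimum was set, so ratios close to no change also count. The share of all genes with such signs was not computed, and nothing is read from the number listed. The value given is the Cd73N log2 ratio between genotypes minus that in Cd73P. None of these differences was tested, since each group held 1 library. It was 2.72 for Dusp1, 2.29 for Zfp36l2 and 2.11 for Btg2, where Cd73N Ezh2-CKO stood above the 3 other libraries. It was 1.10 for Klf4, at levels up to 1.53 FPKM. For Klf2 (0.54) and Klf6 (0.27) neither genotype ratio passed 1.5-fold. Dusp5 had a difference of -0.69, the only negative value of the 10 genes.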

How the results depend on the processing

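The count of 7 genes higher in Cd73N, and of 7 higher in Cd73N than in Cd73P in the libraries labelled Ezh2-CKO, moved by less than 1.5 times under every alternative run, and 0 of the called ratios changed sign, although with a pseudocount of 5 the counts were 6 and 5. For the values below the cause was not tested. The Cd73N median was 2.13 with a pseudocount of 0.1, 1.63 with FPKM-sum scaling and 2.44 over the 7 genes with at least 10 FPKM. In Cd73P the count of higher genes was 0 with a pseudocount of 5, with a 2-fold threshold and among genes with at least 10 FPKM, and 1 gene, Klf2, was lower with a pseudocount of 0.1. Between wild-type fractions 2 genes were higher in Cd73P under median-ratio scaling and 3 under FPKM-sum scaling, with medians of -0.011 and 0.066 in place of -0.27. Those scalings shifted the median gene there by 0.15 and 0.19, and by 0.32 and 0.40 among genes with at least 10 FPKM. The fraction median in Ezh2-CKO was -2.29 and -1.25 with pseudocounts of 0.1 and 5, -1.49 under median-ratio scaling and -2.51 over the 7 genes with at least 10 FPKM, in place of -1.65. Bound midpoints moved no ratio of the set by more than 0.0999 and changed 0 of the counts. No paired analysis was possible because each group held 1 library. Depth limits Klf2 and Klf4, whose intervals correspond to as few as 13 and 35 fragments.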
